A study of Mus musculus with 6 samples.

Results

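The series holds 1 library of activated satellite cells (ASC) and 2 libraries of quiescent satellite cells (QSC), and the comparison described here sets the former against the latter across all genes. A gene was taken as a member of the comparison when it reached at least 5 CPM (counts relative to the library total, adjusted by the TMM factor) in whichever group had the higher level. This held for 11658 of 17116 genes tested and of 38924 genes listed. The lowest level just inside this limit was 5 CPM and the highest just outside was 4.999 CPM. The QSC libraries come, per the labels, from mouse 1 and mouse 3. The ASC library is described as activated satellite cells and titled ASCmyo-Pax7-plus-p1, in which the labels do not explain the parts myo and p1. No strain, age, genotype, isolation gate or activation time was read from the labels for these 3 samples, and their protocol text describes the reprogramming cultures that make up the rest of the series, so the medium in which the ASC grew is not given in the sources used here. RNA was extracted in the same way for all samples, selected on its poly(A) tail and made into libraries with a kit that marks the strand. With 1 ASC library there is no replicate of the activated state. The test takes its spread from the QSC mice and assumes that ASC would vary as they do.

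Satellite cells are the stem cells of skeletal muscle and lie between the muscle fibre and its basement membrane. In resting muscle they are out of the cell cycle and express the paired box factor Pax7, and on injury they enter the cycle, induce or raise the determination factor Myod1, divide as myoblasts, and then either return to rest or leave the cycle, switch on Myog, fuse and build sarcomeres. Genes tied to several of these steps are described below: the quiescent state, entry into the cycle, growth, and terminal differentiation. Activation cannot be told apart here from any difference in isolation, culture or mouse between the libraries. In bulk RNA, fewer cells of a kind and less RNA per cell cannot be told apart, so each level below is that of a whole sample.

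Values are given as ASC first, then QSC of mouse 1 and of mouse 3. Differences are log2, ASC minus QSC. The value after ± is a standard error worked back from the edgeR quasi-likelihood test, as the size of the difference over the square root of its F statistic. It is not the spread of that gene between the QSC mice. A gene is said to have risen or fallen only where the edgeR quasi-likelihood test passed a Benjamini-Hochberg adjusted p of 0.05 over all genes tested. The libraries held 20859611 counts for ASC and 29279686 and 29001640 for QSC, so that 1 count was worth 0.0431, 0.0477 and 0.0452 CPM. The QSC mice differed in sex-linked transcripts: Xist, the RNA that silences an X chromosome in females, was at 0.0431 versus 0.0954 and 530.1 CPM, while the Y-linked gene Ddx3y was at 85.2 versus 455 and 0.226 CPM. The ASC library thus had the same sex-linked pattern as mouse 1. Between the QSC mice, 549 members (4.71%) differed at least 4-fold, 428 of them higher in mouse 1.

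Of the 11658 members, 1802 (15.5%) rose and 1294 (11.1%) fell in ASC, the shares beside which each list count below is to be read. The size of these changes was large: 1486 members (12.7%) stood at least 4-fold higher than in each QSC mouse and 1231 (10.6%) at least 4-fold lower, and 1397 and 1095 of these also passed the test. Another 1710 members had an unadjusted p under 0.05 but did not pass after adjustment. The median difference over all members was 0.19 (0.20 against mouse 1 and 0.24 against mouse 3). The scaling bears on these counts, and heat shock genes alone took 8.50% and 10.7% of the QSC counts. With library size alone the median moved up by 0.66 to 0.85, and the calls became 1784 up and 481 down, so that 78.8% of calls were rises in place of 58.2%. The DESeq2 Wald test called 1655 up and 1800 down (47.9% rises). No gene that passed in the main analysis passed in the opposite direction under any of these. In all, 47 members had no count in QSC and 71 none in ASC.

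**Figure D1:**
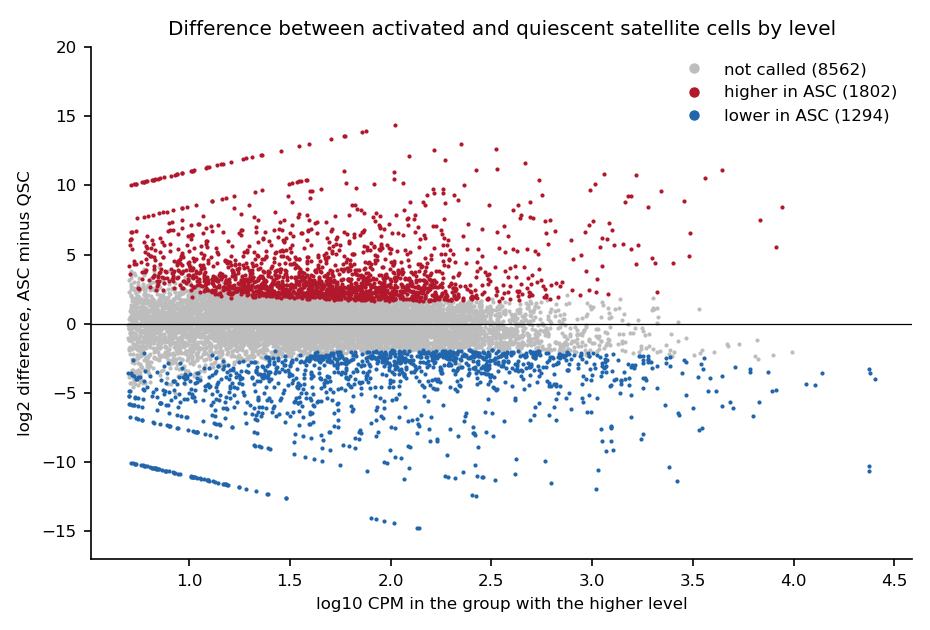
Log2 difference between ASC and QSC (vertical) against the log10 CPM of the group with the higher level (horizontal) for 11658 genes, with 1802 genes called higher in red and 1294 called lower in blue. The straight streaks far from 0 are genes with 0 or very few counts in 1 group, whose estimate depends on the prior count.

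6 promoter windows are printed first because their genes carry the main contrasts: Myog, Chrng and Acta1 for differentiation, which rose, and Nr4a1, Cxcl2 and Ifit1 for the immediate early, NF-kB and interferon responses, which fell. Each is the 250 bases before the transcription start given by RefSeq for GRCm38.p6, read on the gene's strand, 5′ to 3′. The windows are Myog, chr1:134289754-134290003 (plus strand), Chrng, chr1:87205561-87205810 (plus strand), Acta1, chr8:123894776-123895025 (minus strand), Nr4a1, chr15:101266596-101266845 (plus strand), Cxcl2, chr5:90903649-90903898 (plus strand) and Ifit1, chr19:34640639-34640888 (plus strand). Capitals mark, on either strand, E-boxes (CANNTG, the letters bound by the MyoD family) in Myog, Chrng and Acta1, a CArG box (the motif of serum response factor) in Acta1, TGACG, part of the cAMP response element, in Nr4a1, an NF-kB site in Cxcl2 and interferon-stimulated response elements in Ifit1.
Myog: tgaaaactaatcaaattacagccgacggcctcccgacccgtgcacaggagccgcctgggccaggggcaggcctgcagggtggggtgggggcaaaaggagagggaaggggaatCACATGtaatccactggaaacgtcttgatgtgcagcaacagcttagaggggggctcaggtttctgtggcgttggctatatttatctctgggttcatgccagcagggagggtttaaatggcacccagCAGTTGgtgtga
Chrng: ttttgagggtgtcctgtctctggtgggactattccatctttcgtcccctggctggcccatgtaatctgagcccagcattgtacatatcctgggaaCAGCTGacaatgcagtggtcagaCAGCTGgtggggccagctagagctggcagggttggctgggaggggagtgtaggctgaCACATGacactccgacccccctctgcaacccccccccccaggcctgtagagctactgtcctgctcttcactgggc
Acta1: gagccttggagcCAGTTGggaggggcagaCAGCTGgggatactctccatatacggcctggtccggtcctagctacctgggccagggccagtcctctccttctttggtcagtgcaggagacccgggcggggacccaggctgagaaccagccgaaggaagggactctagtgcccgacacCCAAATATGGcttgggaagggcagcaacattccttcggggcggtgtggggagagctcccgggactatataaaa
Nr4a1: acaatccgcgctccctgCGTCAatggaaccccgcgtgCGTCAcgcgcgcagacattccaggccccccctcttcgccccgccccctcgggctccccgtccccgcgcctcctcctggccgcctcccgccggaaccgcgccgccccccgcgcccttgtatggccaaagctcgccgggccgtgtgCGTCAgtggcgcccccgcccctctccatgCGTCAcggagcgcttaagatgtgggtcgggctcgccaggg
Cxcl2: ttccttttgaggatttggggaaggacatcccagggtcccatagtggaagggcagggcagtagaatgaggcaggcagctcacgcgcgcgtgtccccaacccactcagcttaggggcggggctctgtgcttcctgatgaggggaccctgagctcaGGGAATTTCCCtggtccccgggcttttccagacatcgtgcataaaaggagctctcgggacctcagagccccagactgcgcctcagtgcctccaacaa
Ifit1: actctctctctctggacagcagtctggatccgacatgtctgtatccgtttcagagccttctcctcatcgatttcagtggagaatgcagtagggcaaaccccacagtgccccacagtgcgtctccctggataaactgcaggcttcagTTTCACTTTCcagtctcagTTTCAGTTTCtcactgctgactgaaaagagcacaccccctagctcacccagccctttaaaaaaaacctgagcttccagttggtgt
The Myog window holds 2 E-boxes, that of Chrng 3, and that of Acta1 2 E-boxes and 1 CArG box. TGACG occurs 4 times in the Nr4a1 window, each time on the opposite strand. The 2 NF-kB matches of Cxcl2 overlap, since the same letters match in each orientation, and Ifit1 has 2 separate elements.

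Over the called members of the lists, the same letters were counted in all RefSeq windows of that length. Of 85 contractile, coupling and synapse genes that rose, 63 had a RefSeq entry with 74 windows, and 39.2% of these windows held the E-box CAGCTG against 13.0% of all 32851 windows in the table. A MEF2 site was in 17.6% of them against 2.92%, and a CArG box in 9.46% against 1.47%. The wider E-box CANNTG was in 79.7% against 66.2%. Of the windows of immediate early genes that fell, 58.3% held TGACG (17.8% of all windows) and 20.8% a CArG box, the latter only in Egr2 and Zfp36. An NF-kB site was in 54.5% of 11 windows of cytokine genes that fell (3.90% of all), and an interferon-stimulated element in 36.8% of 19 windows of interferon and MHC class I genes that fell (2.98%). The NF-kB and interferon letters were chosen after the values were seen. The 13-letter heat shock element was in 1 of 15 windows of heat shock genes (0.466% of all windows). These shares describe letters in windows, and no binding was measured.

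The genes that define the satellite cell split, and of 8 markers listed for its identity check 4 fell and 0 rose (median -2.74). Calcr, the calcitonin receptor that holds satellite cells in rest, had 0 counts in ASC against 55.9 and 151 CPM, which is at least 811-fold lower. Sdc4, a syndecan used to sort satellite cells, was at 218 versus 2048 and 1903 CPM, Vcam1, an adhesion receptor used likewise, at 75.7 versus 1032 and 490.04 CPM, and Cd34, a sialomucin of quiescent cells, at 19.7 versus 249 and 172 CPM. All 4 fell, and in each ASC lay below both mice by at least 4-fold, yet Sdc4 and Vcam1 were still well detected. Pax7 itself (ENSMUSG00000028736) stood at 19.8 versus 34.5 and 159.7 CPM, a difference of -2.29 ± 0.85 that missed the threshold (edgeR adjusted p = 0.0642); DESeq2 and a fit of these 3 libraries alone called Pax7 and Myf5 lower. ASC was lower than both mice, but the mice differed from each other by more than ASC differed from mouse 1. Myf5, an early myogenic factor (ENSMUSG00000000435), was at 28.5 versus 84.2 and 124 CPM, also lower than in both mice without passing (-1.87 ± 0.68, adjusted p = 0.0624). Pax3, the paralog of Pax7, fell and was at 6.16 versus 20.5 and 55.7 CPM. Pax7 was thus detected in the library labelled Pax7-plus.

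The satellite cell identity list of 20 had 3 rises and 8 falls (median -1.06 against 0.19 over all members); with library size alone 5 fell. Msc, a bHLH repressor of myogenic factors also called musculin, was at 0.215 versus 402 and 123 CPM, and the growth factor receptor Fgfr4 was at 44.9 versus 323 and 479 CPM (-3.16 ± 0.72). Caveolin 1, Cav1, a coat protein of membrane pits, fell by 5.02 ± 0.85 and the tetraspanin Cd82 likewise (-3.59 ± 0.85). Going the other way, Sdc3, a second syndecan of satellite cells, was at 459 versus 32.9 and 19.8 CPM, far above each mouse, and Ncam1, an adhesion molecule of myoblasts and regenerating fibres, rose by 2.44 ± 0.58. Several genes used as general markers of the lineage did not pass: the M-cadherin gene Cdh15 was at 427 versus 313 and 555 CPM, Itga7, the laminin receptor subunit of muscle, at 651 versus 435 and 238 CPM, and the HGF receptor gene Met at 134 versus 43.1 and 79.00 CPM. For Cdh15 the ASC value lay between the mice.

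Niche and matrix genes also went in both directions, 3 up and 8 down of 22 (median -0.34, which turned to 0.25 with library size alone). The collagen VI chains Col6a1 and Col6a2, which form the microfibrils around satellite cells, fell (-3.26 ± 0.73 and -4.65 ± 0.78). Col5a3, a collagen V chain, was at 6.29 versus 104 and 119 CPM and Sparcl1, a matricellular protein, at 0.129 versus 174 and 51.2 CPM, the latter a 860.2-fold (counting interval 294 to 4172) difference. The basement membrane genes that rose were Lamb1, the laminin beta 1 chain, at 193 versus 17.6 and 4.07 CPM, and Nid2, nidogen 2, at 328 versus 27.1 and 10.99 CPM, whereas Lama2, the laminin chain of adult muscle, fell by 2.11 ± 0.68. Collagen IV did not pass (Col4a1 at 512 versus 271 and 224 CPM). The fall of Lama2 did not pass with library size alone.

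Notch signalling holds satellite cells in quiescence through the repressors Hey1, Heyl and Hes1. Hey1 was at 8.66 versus 152 and 80.2 CPM and Heyl at 20.03 versus 149 and 588 CPM, both lower in ASC than in either mouse, and they were the only members of the 15 listed that fell. Hes1 was at 76.8 versus 65.9 and 132 CPM, within the range of the mice. The receptor genes Notch1 and Notch3 did not pass (-1.07 ± 0.62 and -2.05 ± 0.73). The 4 that rose were the ligands Jag2 (125 versus 4.48 and 2.397 CPM) and Dll1 (87.1 versus 18.1 and 16.4 CPM), the glycosyltransferase Lfng, which tunes ligand response, and Hes6, a bHLH factor that promotes differentiation, at 1431 versus 25.9 and 26.5 CPM. Of the 15, 1 fell with library size alone and 4 with DESeq2.

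Among 19 receptor tyrosine kinases and their feedback genes, 3 rose and 5 fell (median -1.09), or 3 fell with library size alone, where Fgfr1 and Egfr lost their calls. Erbb3, a neuregulin receptor, was at 169 versus 0.858 and 1.67 CPM, the largest rise of this list (7.05 ± 0.72), and its partner Erbb2 rose by 2.92 ± 0.59. Igf1r, the IGF1 receptor, rose and was at 44.98 versus 5.102 and 13.9 CPM. By contrast the FGF receptors Fgfr1 and Fgfr4, the EGF receptor Egfr and the feedback inhibitor Errfi1 fell, Errfi1 being at 316 versus 5417 and 3387 CPM. Spry1, a feedback inhibitor tied to the return to quiescence, was at 69.1 versus 183 and 321 CPM and missed the threshold (-1.87 ± 0.67, edgeR adjusted p = 0.0591). Of these 19, 3 fell with library size alone.

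Immediate early genes fell almost throughout. They are transcription factors and regulators that cells switch on within minutes of a stimulus. Fos (ENSMUSG00000021250) was at 18.5 versus 2174 and 4831 CPM, Atf3 at 5.34 versus 1295 and 2198 CPM and Nr4a1 at 7.32 versus 844 and 1648 CPM. In all 3 the ASC value lay far below each mouse, with differences of -7.56 ± 1.11, -8.35 ± 1.04 and -7.41 ± 0.99 (edgeR adjusted p = 0.000136, 2.91e-05 and 5.26e-05). Of 24 listed genes 22 fell and 0 rose, with a median of -4.67 (-4.72 against mouse 1 and -4.53 against mouse 3), and they took 0.165% of the ASC counts against 2.57% and 3.08% in QSC. The exceptions were Nr4a2, at 72.1 versus 199 and 264 CPM, and Klf2, at 24.9 versus 19.3 and 50.2 CPM, neither of which passed. The AP-1 members did not fall equally: Jun was still at 249.6 versus 1830 and 2368 CPM (-3.07 ± 0.79), and Junb at 144 versus 4172 and 4048 CPM. Myc, a growth regulator on the same list, was higher in QSC, at 81.2 versus 4093 and 1754 CPM. The Nr4a1 window with its 4 TGACG letters is printed above.

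Heat shock genes were very abundant in the QSC libraries and mostly fell. The part of cell isolation in these levels, and in those of the immediate early genes, was not tested. Hspa1a and Hspa1b, near-identical inducible Hsp70 genes whose reads may be shared between them, were at 14.8 versus 22960 and 24292 CPM and at 19.1 versus 21657 and 25750 CPM. These are differences of -10.64 ± 1.54 and -10.28 ± 1.52, and the QSC mice were close to each other for each gene. The 18 listed genes took 8.50% and 10.7% of QSC counts and 0.984% of ASC counts, and 12 of them fell while 1 rose (median -3.20). With library size alone 6 fell. Dnajb1, an Hsp40 co-chaperone, was at 61.3 versus 4305 and 8344 CPM and Bag3, which links Hsp70 to autophagy, at 129.8 versus 3637 and 3849 CPM. Hspa8, the constitutive Hsp70, fell by 3.27 ± 1.09 and was still at 2454 CPM. The gene that rose was Hspb8, a small heat shock protein of muscle, at 592 versus 126 and 157 CPM. Hsf1, the regulator of the response, was at 74.1 versus 100.2 and 139 CPM and did not pass.

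Genes of the unfolded protein and amino acid stress response fell in 9 of 20 cases and rose in 2 (median -1.37), and with library size alone 1 rose and 3 fell. Ddit3, also called CHOP, was at 4.05 versus 98.3 and 196 CPM, Atf4, the regulator of the amino acid response, at 138 versus 767 and 1483 CPM, and Xbp1, a regulator of secretory capacity, at 198 versus 1676 and 1338 CPM. Asns, asparagine synthetase, and Phgdh, the entry enzyme of serine synthesis, are Atf4 targets but rose, Asns to 157 versus 16.02 and 11.1 CPM. Of the antioxidant and metal-binding genes 6 of 14 fell and 1 rose: the metallothionein Mt2 was at 7.19 versus 1568 and 2019 CPM and haem oxygenase Hmox1 at 131 versus 10687 and 2761 CPM, whereas Nqo1, a quinone reductase, was at 79.3 versus 4.05 and 5.38 CPM. Hmox1 was much higher in mouse 1 than in mouse 3, and ASC was below both.

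Many cytokine and NF-kB transcripts fell in ASC, and a few rose. Cxcl1, a neutrophil-attracting chemokine, was at 0.991 versus 4288 and 978 CPM, Ccl2, which attracts monocytes, at 0.991 versus 423 and 101 CPM, and the cytokine Il6 at 0.302 versus 81.7 and 61.4 CPM. Mouse 1 had more Cxcl1 and Ccl2 than mouse 3, and ASC lay far below both. Of 19 cytokine and NF-kB genes 14 fell and 2 rose (median -6.36), or 1 rose with RLE size factors. Cxcl2 had 3 counts in ASC, a 2169-fold (counting interval 742 to 10521) difference. The feedback genes Socs3 and Nfkbia, which restrain STAT3 and NF-kB, were at 5.21 versus 501 and 818 CPM and at 42.3 versus 1522 and 1227 CPM. The rises were Ptgs2, the inducible cyclooxygenase, at 88.1 versus 2.38 and 2.03 CPM, and Cxcl12, a chemokine of stem cell homing, at 141 versus 43.2 and 41.2 CPM. Csf1, the macrophage growth factor, was at 753 versus 295 and 56.2 CPM and missed the threshold (2.10 ± 0.74, edgeR adjusted p = 0.0549).

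Interferon response and MHC class I genes fell in 16 of 22 cases and rose in 0 (median -3.58, -3.53 and -3.66 by mouse), or in 9 with library size alone. The class I heavy chain genes H2-K1 and H2-D1 were at 14.6 versus 1608 and 1510 CPM and at 28.6 versus 3384 and 1995 CPM, and their light chain gene B2m at 99.6 versus 1050 and 1193 CPM. Gbp2, an interferon-induced GTPase, had 2 counts, a 581-fold (counting interval 161 to 4803) difference, and Ifit1, whose promoter window with 2 interferon elements is printed above, was at 1.38 versus 20.8 and 20.4 CPM. The factors Irf1, Irf7 and Irf9 fell, Irf1 being at 7.84 versus 129.8 and 147 CPM. In each of the called genes ASC was below both mice.

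The circadian clock list had 8 falls and 0 rises among 16 genes (median -1.83), or 2 falls with library size alone. The repressor Per1 was at 6.42 versus 39.5 and 113 CPM, Rora, an activator of the clock, at 17.3 versus 415 and 498 CPM, and Nr1d1, a repressor, at 32.7 versus 226 and 181 CPM. Members from opposite arms of the loop, such as Arntl (-2.03 ± 0.68) and Nr1d1 (-2.64 ± 0.69), were lower together, while Clock, at 54.2 versus 47.3 and 51.01 CPM, did not pass. Of 16 p53 target genes 6 rose and 2 fell (median 0.53), or 1 fell with library size alone: Ccng1 was at 883 versus 24.98 and 32.2 CPM and Phlda3 at 445 versus 69.2 and 49.3 CPM, but the best-known target Cdkn1a, a brake on the cycle, was at 1451 versus 2755 and 2181 CPM and did not pass. Autophagy and lysosome genes were mixed, 3 up and 4 down of 22, beside 15.5% up and 11.1% down over all members. The LC3-family genes Gabarapl1 and Map1lc3a fell (-4.15 ± 0.75 and -2.75 ± 0.70). Of the 22, 1 fell with library size alone, where Map1lc3a lost its call.

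**Figure D2:**
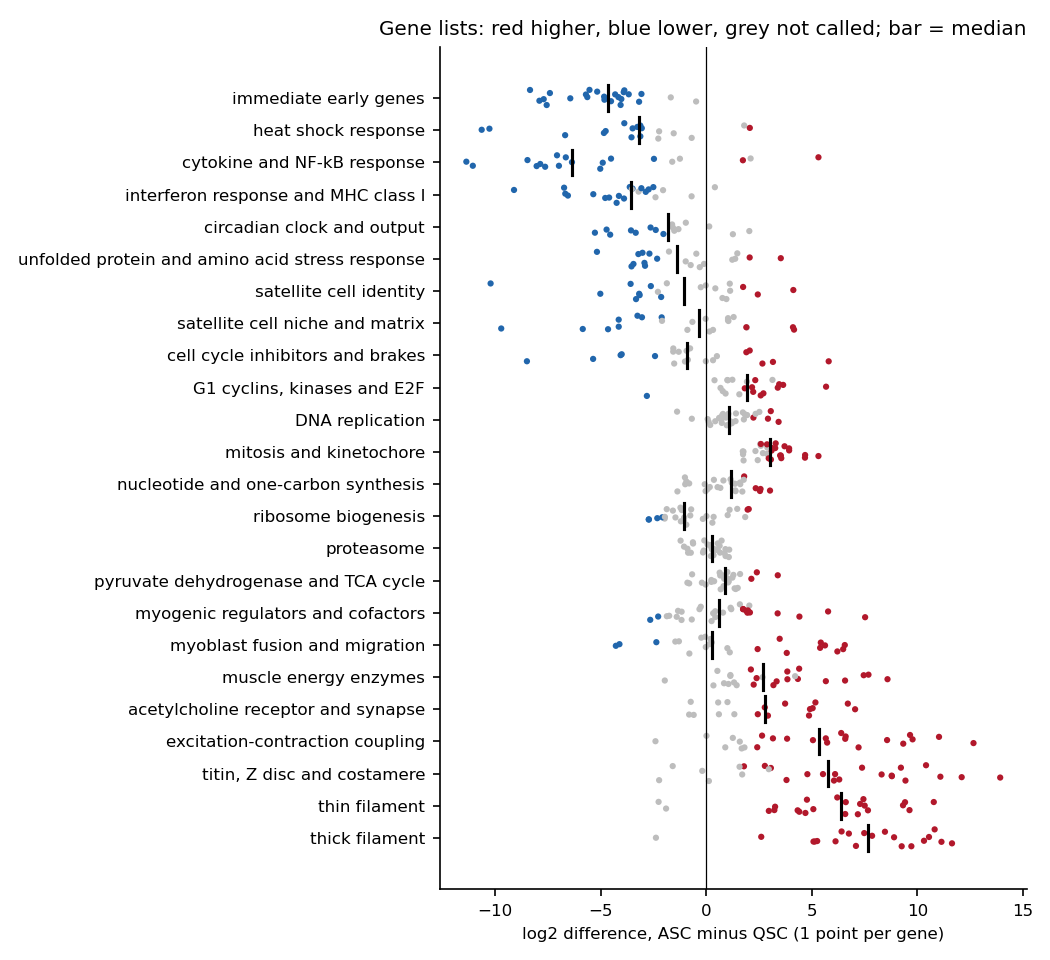
Log2 difference between ASC and QSC (horizontal) for each member of 24 gene lists (vertical), 1 point per gene, red where called higher, blue where called lower and grey where not called, with the list's median as a black bar. Medians run from -6.36 for cytokine and NF-kB genes to 7.67 for the thick filament.

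The cyclin D genes rose in ASC. Ccnd1, Ccnd2 and Ccnd3, the cyclin D genes that start Rb phosphorylation, were at 183 versus 57.7 and 45.7 CPM, at 219 versus 23.1 and 12.03 CPM and at 1198 versus 179.8 and 353 CPM. ASC was above both mice in each, and all 3 rose (1.82 ± 0.57, 3.64 ± 0.62 and 2.17 ± 0.68). Of 21 genes of G1 cyclins, kinases and E2F factors 10 rose and 1 fell (median 1.93, 1.66 and 2.00 by mouse), or 0 fell with library size alone. The S-phase cyclins Ccne1 and Ccne2 rose by 2.58 ± 0.60 and 2.71 ± 0.65, and the atypical repressors E2f7 and E2f8 by 3.45 ± 0.76 and 5.68 ± 0.96. E2f5, a repressor factor of resting cells, was the gene that fell. The kinase genes Cdk4, at 309 versus 191 and 169 CPM, and Cdk2, at 103 versus 79.4 and 49.2 CPM, did not pass.

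Of 28 mitotic genes 17 rose and 0 fell (median 3.01), but here the QSC mice stood apart from each other: the median difference was 2.15 against mouse 1 and 5.98 against mouse 3. Ccnb1, cyclin B1, was at 159 versus 11.9 and 0.543 CPM, and Cdk1, its kinase, at 90.04 versus 14.5 and 1.45 CPM. ASC was highest and mouse 3 lowest in both genes. Mki67, the marker of cycling cells, was at 64.7 versus 38.4 and 0.317 CPM and did not pass (1.74 ± 1.17, edgeR adjusted p = 0.306), and neither did Top2a, at 156 versus 42.1 and 0.362 CPM. Beside this, erythroid and endothelial markers were also higher in mouse 1, as given further on, and their part in the mitotic levels of that library was not tested. With library size alone 4 of the 28 mitotic genes rose.

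Of DNA replication genes 4 of 31 rose and 0 fell (median 1.07, 0.83 and 1.67 by mouse). Over all members 15.5% rose and 11.1% fell, so rises were not more frequent here than among all genes. Mcm2, a subunit of the replicative helicase, was at 126 versus 25.4 and 7.96 CPM and rose, while its partners Mcm5, at 81.98 versus 85.7 and 14.3 CPM, and Mcm7, at 144 versus 97.1 and 27.4 CPM, did not pass. Pcna, the sliding clamp of DNA polymerase, was lower in ASC than in either mouse, at 95.2 versus 335 and 161 CPM, without passing (-1.38 ± 0.67). Rrm2, the ribonucleotide reductase subunit that limits the supply of DNA precursors, was at 535 versus 112 and 20.3 CPM and led the nucleotide synthesis list. Of that list 5 of 27 rose and 0 fell (median 1.15), a share of rises close to the 15.5% of all members. Cad, the first enzyme of pyrimidine synthesis, rose by 2.57 ± 0.58.

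Brakes on the cycle changed in both directions, 5 up and 5 down of 21 (median -0.93). Rb1, the retinoblastoma protein, was at 158 versus 18.9 and 16.5 CPM, and its relatives Rbl1 and Rbl2 rose by 2.06 ± 0.65 and 1.90 ± 0.65. Neither call held in a fit of the 3 libraries alone, where 3 of the 21 rose, and that of Rbl2 was also lost with RLE size factors and DESeq2. Cdkn2b, the p15 inhibitor, was at 37.3 versus 5.77 and 6.01 CPM and Cdkn2a, the p16 and p19Arf gene, at 8.06 versus 0.191 and 0.0904 CPM. The antiproliferative genes Btg1, Btg2 and Gadd45b fell instead, Btg1 being at 90.6 versus 1684 and 1232 CPM, and Rgcc was at 0.431 versus 222 and 92.9 CPM. Cdkn1c, the p57 inhibitor, differed widely between the mice, and ASC lay between them, at 129 versus 691 and 71.04 CPM. Cdkn1b, p27, was at 3.403 versus 8.201 and 11.3 CPM and did not pass.

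**Figure D3:**
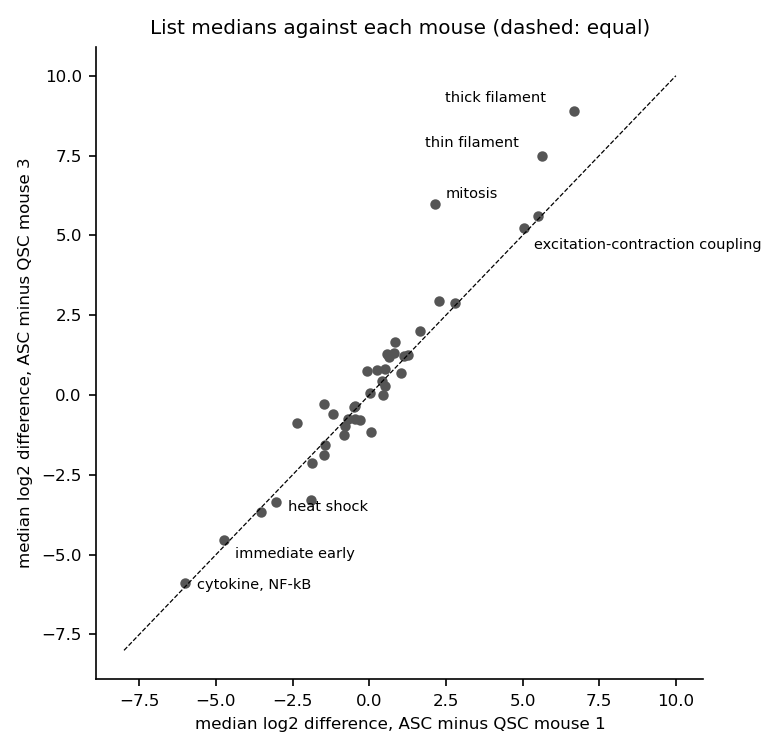
Median log2 difference of each gene list between ASC and QSC of mouse 1 (horizontal) and QSC of mouse 3 (vertical), 1 point per list other than the cell type markers, with a dashed line of equality. Mitosis lies farthest above the line, at 2.15 and 5.98, while the immediate early list lies close to it, at -4.72 and -4.53.

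Few genes of growth and protein synthesis rose, beside 15.5% of all members that rose and 11.1% that fell. In ribosome biogenesis 2 of 27 rose and 4 fell, with a median of -1.05 (-1.49 and -0.27 by mouse). With library size alone 1 rose and 0 fell, and with DESeq2 1 rose and 7 fell. Nop58 and Gnl3, nucleolar proteins, fell (-2.72 ± 0.72 and -2.72 ± 0.70), while Polr1b, an RNA polymerase I subunit, and Utp20, a processing factor, rose by 2.01 ± 0.66 and 1.96 ± 0.60. Cytosolic ribosomal protein genes, taken by symbol, had 0 rises and 20 falls among 81 (median -1.68), but 0 falls with library size alone and 59 with DESeq2. Translation factors had 0 rises and 3 falls among 25, or 0 falls with library size alone and 10 with DESeq2, and the start-site factor Eif1 was at 634 versus 5320 and 6784 CPM. Among 20 tRNA synthetases only Vars, at 228 versus 61.7 and 63.2 CPM, passed, while 4 did so with library size alone and 3 with DESeq2. Of 31 proteasome genes edgeR called 0, 0 had an unadjusted p under 0.05 and DESeq2 called 0; the median was 0.29 (-0.09 and 0.75 by mouse); Psmd2, a regulatory particle subunit, was at 625 versus 436 and 153 CPM.

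Mitochondrial and fuel genes changed in part, beside 15.5% of all members that rose and 11.1% that fell. Of 28 genes of pyruvate dehydrogenase and the TCA cycle 3 rose and 0 fell (median 0.91), or 5 rose with library size alone. In the main fit rises were thus not more frequent in this list than over all members. The 3 were the kinases Pdk1, Pdk2 and Pdk3, which switch pyruvate dehydrogenase off. Pdk1 was at 44.2 versus 3.91 and 4.52 CPM, whereas Pdk4, the form induced on fasting, was at 134 versus 101 and 125 CPM and did not pass. Citrate synthase, Cs, was at 368 versus 136 and 107 CPM, above both mice, and missed the threshold (1.60 ± 0.59, edgeR adjusted p = 0.0634). Of 17 mitochondrial biogenesis genes 4 rose (median 1.62): the nuclear receptor Esrra was at 40.4 versus 3.05 and 3.84 CPM, and the fusion genes Mfn2 and Opa1 rose by 2.71 ± 0.58 and 2.23 ± 0.57. Of 23 fatty acid oxidation genes 6 rose and 1 fell, or 2 fell with DESeq2. Cpt1a and Cpt1b, the liver and muscle forms of the carnitine transferase that admits fatty acids to mitochondria, were at 137 versus 31.1 and 26.05 CPM and at 18.9 versus 1.33 and 1.899 CPM, and the heart and muscle carrier Fabp3 was at 91.1 versus 5.24 and 5.15 CPM. The gene that fell was Fabp4, the carrier of fat and endothelial cells. Mitochondrially encoded transcripts moved the other way, with 10 of 15 lower (median -2.78, -1.89 and -3.29 by mouse), or 0 with library size alone. Of 25 cholesterol and fatty acid synthesis genes 2 rose and 3 fell (0 with library size alone), and their median of -0.76 was 0.07 against mouse 1 alone.

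Of 30 myogenic regulators 10 rose and 2 fell (median 0.61), or 0 fell with library size alone, 5 fell with DESeq2 and 6 rose with RLE size factors. Myod1 (ENSMUSG00000009471) was at 1029 versus 1836 and 629.6 CPM, so ASC lay between the quiescent mice and there was no call (-0.26 ± 0.74). Myog (ENSMUSG00000026459), the factor of terminal commitment, was at 2055 versus 189 and 4.07 CPM. All 3 libraries differed widely, with 189 CPM already present in mouse 1, and the difference was 4.41 ± 1.16 (edgeR adjusted p = 0.012); against mouse 1 alone it was 3.44 and against mouse 3 alone 8.95. The rises of Myog and Tmem8c did not pass with library size alone or with DESeq2. Mef2c, which acts with Myog on muscle genes, was at 621 versus 5.197 and 1.54 CPM, far above each mouse, and Mef2a rose by 1.97 ± 0.58, while Mef2d, at 164 versus 183 and 228 CPM, did not pass. Myf6, the last factor of the MyoD family, was at 25.4 versus 2.24 and 2.62 CPM. Tcf3, an E-protein partner of MyoD, rose by 1.89 ± 0.57, while the inhibitors that bind E-proteins, Id1 (196 versus 172 and 141 CPM), Id2 (185 versus 170.2 and 141 CPM) and Id3 (579 versus 1438 and 1488 CPM), did not pass. The homeobox factor gene Six4 rose by 1.74 ± 0.58. With RLE size factors 6 of the 30 rose.

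**Figure D4:**
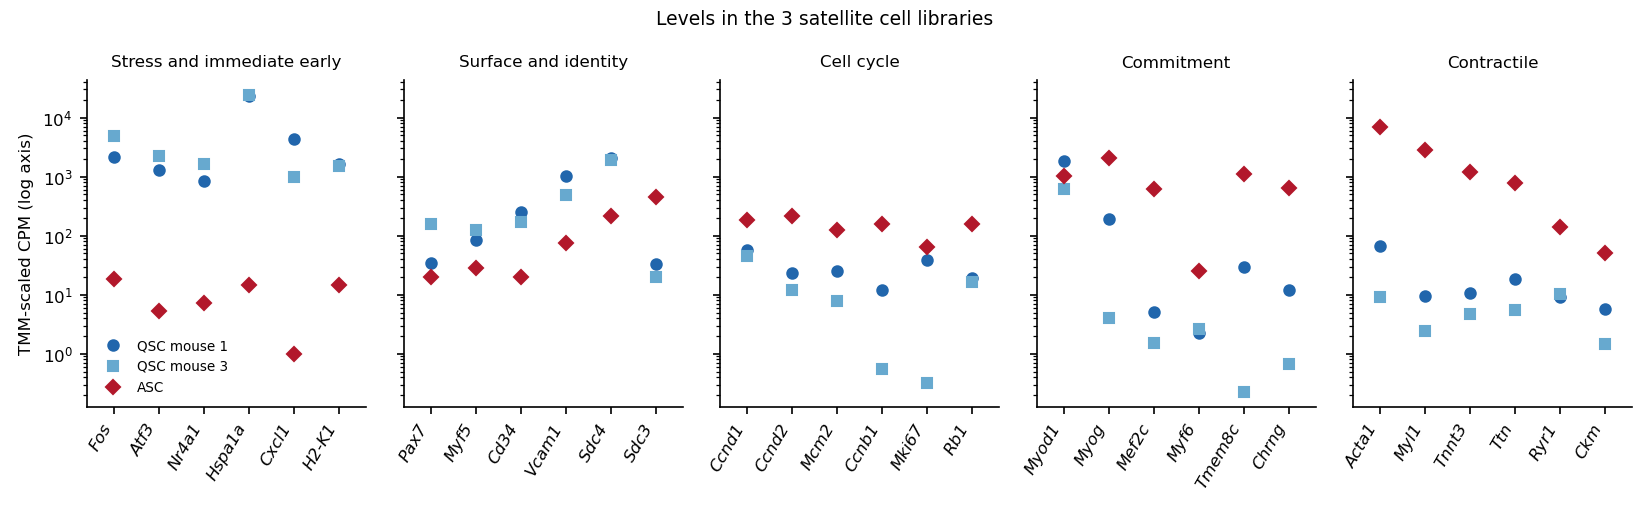
TMM-scaled CPM on a log axis for 30 genes in the ASC library (red diamonds) and the QSC libraries of mouse 1 (dark circles) and mouse 3 (light squares), in 5 panels by role. Fos falls from 2174 and 4831 to 18.5 CPM and Acta1 rises from 65.8 and 9.32 to 6832 CPM, while Myod1 at 1029 CPM lies between the mice.

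Of 23 fusion genes 9 rose and 3 fell (median 0.26), or 0 fell with library size alone. Tmem8c and Gm7325, now called Mymk (myomaker) and Mymx (myomixer), are the membrane proteins that drive myoblast fusion. Gm7325 was at 101 versus 2.15 and 0 CPM, with 0 counts in mouse 3. Tmem8c was at 1120 versus 30.04 and 0.226 CPM, so RNA of both genes was already measurable in QSC of mouse 1. Cdh2, N-cadherin, was at 477 versus 8.96 and 13.2 CPM, a rise of 5.43 ± 0.63 that was similar against both mice, and Jam2, a junction protein needed for fusion in other vertebrates, was at 168 versus 19.9 and 4.02 CPM. The membrane repair genes Myof and Dysf were at 240.5 versus 7.82 and 3.62 CPM and at 89.9 versus 3.05 and 0.588 CPM, and Cav3, the muscle caveolin, at 180.4 versus 3.58 and 0.452 CPM, opposite to the fall of Cav1. Nfatc2, the calcium-dependent factor of the second stage of fusion, fell by 4.28 ± 1.02, and the migration gene Elmo1 fell by 4.11 ± 1.06.

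Contractile genes rose almost throughout. Of 20 thick filament genes 19 rose and 0 fell (median 7.67, 6.68 and 8.90 by mouse), and they took 2.09% of ASC counts against 0.00874% and 0.0113% in QSC. The light chain genes Myl1 and Mylpf were at 2868 versus 9.63 and 2.397 CPM and at 1886 versus 7.77 and 2.89 CPM, the M-band genes Myom2 and Myom3 at 365 versus 3.67 and 1.67 CPM and at 181 versus 0.381 and 0.0452 CPM, and Mybph, a myosin-binding protein of immature muscle, at 1512 versus 3.62 and 1.31 CPM. ASC was far above each mouse in these 5. Mybpc1, the slow myosin-binding protein C, was already at 35.8 and 73.7 CPM in QSC and rose by 2.60 ± 0.61. The gene without a call was Mylk2, the kinase of the skeletal light chain, at 4.91 versus 11.2 and 40.2 CPM.

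Of 22 thin filament genes 20 rose and 0 fell (median 6.39, 5.63 and 7.49 by mouse), while DESeq2 called 2 lower. Acta1, the actin of adult skeletal muscle (ENSMUSG00000031972), was at 6832 versus 65.8 and 9.32 CPM, and cardiac actin Actc1 at 3078 versus 62.5 and 1.67 CPM. Both were higher in mouse 1 than in mouse 3, and ASC was far above both. Neb, the giant ruler of the thin filament, was at 537 versus 18.5 and 13.3 CPM, and its relative Nrap, a scaffold of myofibril assembly, at 164 versus 0.477 and 0 CPM. The tropomyosins were already detected in the QSC libraries, Tpm1 at 2522 versus 152 and 86.2 CPM and Tpm2 at 1976 versus 93.6 and 51.2 CPM. Both rose, by 4.41 ± 0.72 and 4.77 ± 0.69, while the non-muscle-rich Tpm3, at 375 versus 1816 and 997 CPM, did not pass. The leiomodin Lmod3, which nucleates actin, rose by 9.32 ± 0.82 and Lmod2, which elongates it, by 3.26 ± 0.84.

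Of 26 titin, Z disc and costamere genes 19 rose and 0 fell (median 5.79), while DESeq2 called 2 lower. Ttn, titin, was at 786 versus 18.1 and 5.61 CPM and alpha-actinin 2, Actn2, at 1556 versus 3.72 and 1.49 CPM, while Actn3, the fast form, rose by 3.80 ± 0.62 and was at 938 versus 84.1 and 50.5 CPM. Trim63, also called MuRF1, a ubiquitin ligase of the sarcomere, had 0 counts in QSC and 75.9 CPM in ASC, at least 1090.2-fold higher, and its relative Trim54 had 1 count in QSC, a 5307-fold (counting interval 952 to 209680) difference. The intermediate filament gene Des, desmin, by contrast was at 2665 versus 1747 and 3147 CPM, within the range of the mice, and Flnc, filamin C, at 580.4 versus 1727 and 1770 CPM, did not pass. Desmin and filamin C were thus among the structural muscle genes already abundant in the QSC libraries. Of 19 myosin and protein folding genes 2 rose and 1 fell (median -0.67), or 0 fell with library size alone and 4 with DESeq2. The rises were those of Smyd1, at 208 versus 0.238 and 0.407 CPM, and Unc45b, at 178 versus 5.91 and 4.84 CPM, which act in the folding of myosin, and the fall was that of Hsp90aa1, an inducible Hsp90 gene, at 539 versus 4736 and 7377 CPM.

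Of 24 excitation-contraction coupling genes 17 rose and 0 fell (median 5.36). Cacna1s, the voltage sensor of the T-tubule, had 2 counts over both QSC libraries and 332 CPM in ASC, a 7157-fold (counting interval 1980 to 59105) difference. Ryr1, the calcium release channel it opens, rose by 3.83 ± 0.61 and was at 139 versus 9.202 and 10.3 CPM. Stac3, the adaptor of the pair, was at 116 versus 1.38 and 1.36 CPM, and the triad proteins Trdn and Jph2 at 98.4 versus 1.05 and 0.271 CPM and at 338 versus 1.91 and 5.02 CPM. The calcium pump gene Atp2a1 was at 1689 versus 59.6 and 7.01 CPM, whereas Atp2a2, at 977 versus 489 and 329 CPM, did not pass. Scn4a, the sodium channel of muscle, had 2 counts in QSC, a 973-fold (counting interval 269 to 8042) difference. Jsrp1 and Fkbp1a, listed with the same apparatus, did not pass (0.90 ± 0.60 and 0.01 ± 0.64).

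Of the acetylcholine receptor subunit genes Chrna1, Chrnd and Chrng rose and Chrnb1 did not pass. Chrna1 was at 3044 versus 138 and 70.6 CPM, Chrnd at 368 versus 18.8 and 1.63 CPM and the fetal subunit gene Chrng, whose window with 3 E-boxes is printed above, at 655 versus 11.9 and 0.678 CPM. Chrnb1, at 259 versus 433 and 476 CPM, was lower in ASC than in either mouse. Of 17 receptor and synapse genes 10 rose and 0 fell (median 2.77): Dok7, the activator of the receptor kinase, was at 186 versus 10.2 and 1.18 CPM, but the kinase gene Musk, at 227 versus 159.9 and 141 CPM, and the clustering gene Rapsn, at 141 versus 87.7 and 103 CPM, did not pass. Of 19 genes of the dystrophin complex 5 rose and 1 fell (median 1.14), or 0 fell with library size alone. Over all members 15.5% rose and 11.1% fell. Dtna, dystrobrevin, was at 138 versus 3.48 and 2.26 CPM, while dystrophin itself, Dmd, was at 53.1 versus 119 and 167 CPM, below both mice without a call. The syntrophins moved apart, Sntb1 rising by 4.09 ± 0.64 and Sntb2 falling (-3.15 ± 0.71).

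Of 25 muscle energy genes 14 rose and 0 fell (median 2.67), while DESeq2 called 1 lower. These were chiefly the muscle-specific isozymes: Pgam2, phosphoglycerate mutase, was at 308 versus 1.19 and 0.407 CPM, Eno3, enolase, at 1284 versus 34.7 and 15.9 CPM, and Pfkm, phosphofructokinase, at 237 versus 12.1 and 10.4 CPM. Myoglobin, Mb, was at 491 versus 3.91 and 0.859 CPM and adenylate kinase Ak1 at 585 versus 4.39 and 2.26 CPM. The general glycolytic genes were abundant in all 3 libraries and did not pass: Pkm was at 3376 versus 1954 and 1303 CPM, Aldoa at 2134 versus 1752 and 1210 CPM and Ldha at 2105 versus 1088 and 822 CPM. For all 3 the ASC value was above both mice.

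Which isoform of a pair was used can be compared only per length, so the authors' RPKM values (reads scaled for gene length and library total) of the ASC library are given, with no test. Developmental forms dominated in some pairs. For Myh3 this depends on the pairing with Myh4, as another adult fast myosin, Myh1, was at 690.2 RPKM. Embryonic myosin Myh3 was at 817 RPKM against 7.31 RPKM for adult fast Myh4, fetal Chrng at 379 RPKM against 0.615 RPKM for adult Chrne, slow troponin Tnni1 at 2350.0 RPKM against 277 RPKM for fast Tnni2, and brain-type creatine kinase Ckb at 252 RPKM against 40.2 RPKM for muscle Ckm. In other pairs the adult or muscle form was ahead: Myh1, an adult fast myosin, at 690.2 RPKM against 214 RPKM for perinatal Myh8, Acta1 at 5306 RPKM against 2327 RPKM for Actc1, Atp2a1 at 802 RPKM against 246 RPKM for Atp2a2, and Pgam2 at 408 RPKM against 186 RPKM for Pgam1. Over the 8 pairs given so far, the share of the first or developmental, slow or general form ran from 23.5% for the Atp2a2 and Atp2a1 pair to 99.8% for the Chrng and Chrne pair. In QSC the general enzyme form prevailed: Pgam1 made up 98.9% and 99.2% of its pair and Eno1 94.8% and 95.5%, against 31.4% and 45.5% in ASC.

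**Figure D5:**
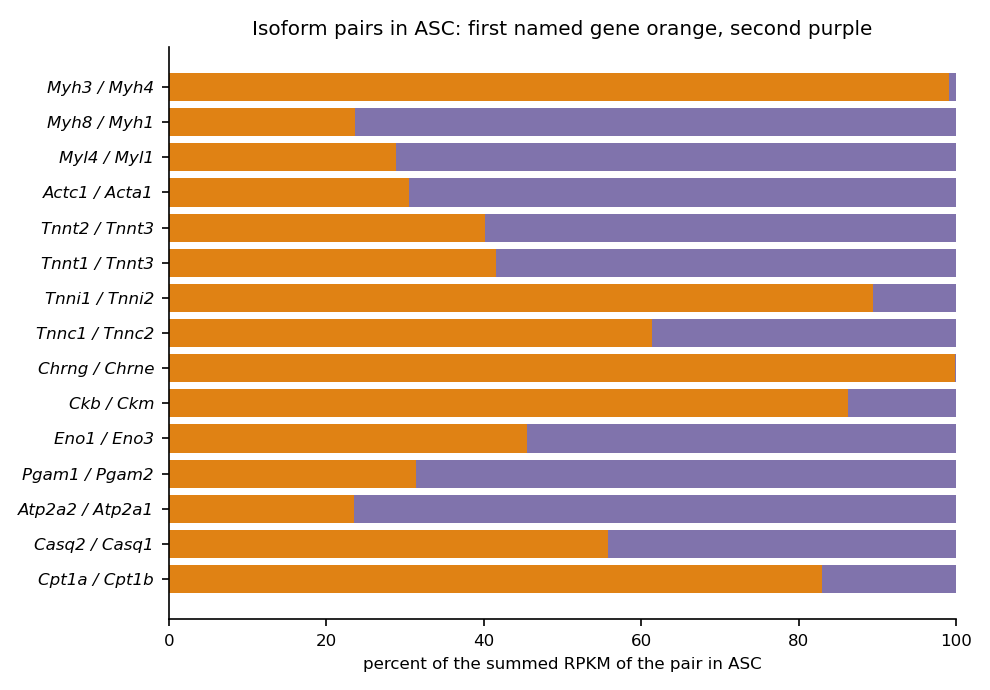
Percent of the summed RPKM of 15 isoform pairs in the ASC library, with the first named gene (developmental, slow, cardiac or general form) in orange and the second in purple. Myh3, Chrng and Tnni1 take 99.1%, 99.8% and 89.5% of their pairs, while Myh8, Myl4 and Actc1 take 23.7%, 28.8% and 30.5%. Myh3 is paired with Myh4 alone, and adult fast Myh1, at 690.2 RPKM, is not part of that share.

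Regulators of splicing and chromatin went in both directions, beside 15.5% of all members that rose and 11.1% that fell. Of 24 splicing and RNA regulators 4 rose and 2 fell (1 fell with library size alone and 6 with DESeq2). Their median was -0.13 in the fit, but 0.01 and 0.05 by mouse and 0.47 with library size alone. Rbm24 and Rbm38, RNA-binding proteins of muscle differentiation, were at 392 versus 27.9 and 20.98 CPM and at 52.00 versus 5.96 and 3.62 CPM, and the splicing factor Rbfox1 at 38.6 versus 4.48 and 2.31 CPM, while the Mbnl1 and Celf1 genes, which set adult splicing, did not pass (-0.70 ± 0.65 and 0.12 ± 0.59). Of 30 chromatin genes 7 rose and 4 fell, or 4 and 1 with library size alone, where Uhrf1 and Tet2 lost their calls; that of Uhrf1 was also lost with RLE size factors and DESeq2. Dnmt1, which copies DNA methylation at replication, was at 127 versus 26.6 and 26.4 CPM, and its partner Uhrf1 was at 104 versus 20.3 and 0.226 CPM, with mouse 3 near 0. The de novo methyltransferase Dnmt3a was at 22.1 versus 90.1 and 57.4 CPM without a call, Tet2, which oxidises methylcytosine, fell by 3.03 ± 0.74, and Kdm6b, the demethylase of histone H3 lysine 27, was at 7.11 versus 281 and 324 CPM. The Polycomb genes Ezh2, at 51.8 versus 41.4 and 70.3 CPM, and Suz12, at 78.5 versus 56.98 and 87.6 CPM, did not pass.

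Integrin genes went in both directions. Itga6, a laminin receptor subunit, was at 347 versus 10.9 and 4.703 CPM, Itga4, a receptor for Vcam1 and fibronectin, at 35.2 versus 0.238 and 0.0452 CPM, and Itga9 at 28.9 versus 1.00 and 0.452 CPM; all 3 rose. Itga8 fell by 3.97 ± 1.00 and was at 0.603 versus 9.77 and 9.27 CPM, and the tetraspanin Cd9 fell as well (-2.78 ± 0.77). The shared beta subunit Itgb1, at 1205 versus 776 and 338 CPM, did not pass, nor did Itga5, at 105 versus 166 and 96.9 CPM. Of 24 integrin and adhesion genes 8 rose and 5 fell (median 0.38), or 1 fell with library size alone, where Itga8 and Cd9 lost their calls.

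By the size of the estimate among called genes, the 15 largest rises were led by genes with no count in QSC. Dlx2, a homeobox factor, had 2438 counts in ASC (105 CPM, at least 1508.5-fold higher), Dner, a Notch-type transmembrane protein, 1672 counts (at least 1034.5-fold), and Camk1g, a calcium-dependent kinase, 1370 counts (at least 848-fold). Frem2, a basement membrane protein, Igfn1, a sarcomere-associated immunoglobulin protein, Disp2, B3galt5, Ano3 and the sodium channel Scn9a also had 0 counts, with bounds from 326-fold for Scn9a to 731-fold for Frem2. Col25a1, a transmembrane collagen of muscle that motor axons need, had 1 count in QSC and 223 CPM in ASC, a 9621-fold (counting interval 1726 to 380070) difference, and the water channel Aqp5 likewise 1 count and 165 CPM, a 7115-fold (counting interval 1276 to 281100) difference. The rest were Trim63, Trim54 and Cacna1s, given above, and 1 gene with a Gm symbol.

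The 15 largest falls included Calcr and several secreted or matrix proteins. Ccl19, a lymphocyte-attracting chemokine, had 0 counts in ASC against 70.4 and 115 CPM (at least 722-fold lower), the alcohol dehydrogenase Adh1 0 counts against 77.2 and 92.02 CPM (at least 656-fold), and Tnxb, a tenascin of connective tissue, 0 counts against 38.4 and 122 CPM (at least 629.8-fold). Medag had 1 count, a 5908-fold (counting interval 1060 to 233360) difference, and Tnfaip6, a hyaluronan-binding protein of inflammation, 6 counts against 968 and 1126 CPM. Spock3, Slc15a2, Lama3 and Chad had 0 counts, with bounds from 136-fold for Chad to 233-fold for Spock3. Tsix, the antisense partner of Xist, also appears here, but it had 6 counts in mouse 1 and 5995 in mouse 3, so its fall rests on mouse 3. The pseudogene Ccl19-ps1 may share reads with Ccl19, and 3 genes with Gm symbols are not described.

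Outside the lists, the following genes were chosen after their values were seen, for their level. Spp1, osteopontin, was the gene of highest RPKM in ASC (6913) and was at 8765 versus 42.7 and 7.51 CPM, a difference of 8.45 ± 1.04. Mest and H19, imprinted transcripts of fetal growth, were at 1647 versus 139.7 and 27.1 CPM and at 1090 versus 17.3 and 28.2 CPM, and the growth factor gene Igf2 at 694 versus 112 and 98.1 CPM. The carbonic anhydrase Car3 was at 1458 versus 2.62 and 3.89 CPM and the integrin ligand Npnt at 1033 versus 1.53 and 0.362 CPM. Reads assigned to Lars2, the gene of a mitochondrial tRNA synthetase, stood at 8203 versus 81.1 and 271 CPM and made up 0.913% of all ASC counts. Which transcript these reads came from was not tested. Among the falls, the polyubiquitin gene Ubb was at 2003 versus 25292 and 22484 CPM, Apoe, a lipid carrier, at 1.81 versus 2956 and 1834 CPM, Gal, the neuropeptide galanin, at 70.6 versus 7511 and 1332 CPM, and Chodl, a lectin, at 0.689 versus 884 and 1261 CPM. Galanin differed between the mice, and ASC was below both. The factors Cebpb, Cebpd and Klf9, which glucocorticoids and stress induce, were at 46.7 versus 4106 and 2254 CPM, at 6.63 versus 1112 and 1361 CPM and at 11.8 versus 906 and 1068 CPM.

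Markers of other cell types were also measured. All 4 globin genes fell, or 0 with library size alone, with a median of -8.77 against mouse 1 and -2.77 against mouse 3: Hbb-bs was at 0.775 versus 424 and 8.82 CPM, and the summed erythroid share of counts was 0.0924% in mouse 1, 0.00153% in mouse 3 and 0.000278% in ASC. Near-identical globin copies may share reads. Of 11 endothelial markers 8 fell and 0 rose (median -5.99, -5.77 and -3.97 by mouse), or 2 with library size alone, and their share was 0.0175%, 0.00477% and 0.00374% in the same order. Tie1 had 0 counts in ASC against 22.5 and 2.13 CPM, and Pecam1 was at 0.905 versus 25.9 and 3.03 CPM. Of 6 immune markers 5 fell (3 with library size alone) and 1 rose, with Cd74, the invariant chain of MHC class II, at 0.302 versus 45.8 and 63.7 CPM and the macrophage lysozyme Lyz2 at 1.81 versus 182 and 54.4 CPM. The haematopoietic gene Laptm5 rose instead, at 19.3 versus 3.96 and 3.03 CPM. Of 9 fibroblast and fibro-adipogenic markers 5 fell and 0 rose: Dcn, decorin, was at 1.08 versus 206 and 312 CPM, Dpt, dermatopontin, had 1 count in ASC against 150.1 and 83.4 CPM, and Pdgfra, the defining receptor of these cells, was near 1 CPM in all 3 libraries, at 1.08 versus 0.715 and 0.814 CPM. Smooth muscle and pericyte markers went both ways, 3 up and 2 down of 7 (1 down with library size alone), with Rgs5 at 155 versus 16.02 and 17.05 CPM and Myh11 at 0.215 versus 14.4 and 11.3 CPM. Of 4 Schwann markers 2 fell (0 with library size alone) and 1 rose, and of 6 tenocyte markers 2 rose, among them Scx at 122 versus 11.3 and 14.7 CPM, and 2 fell. Of 11 adult fibre markers 10 rose and 0 fell. The summed level of each non-muscle list was at most 0.326% of counts in every library. That is a share of RNA from the listed genes and not a share of cells. The part of these cells in the falls of cytokine, MHC and matrix genes was not tested.

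The other cultured libraries of the series give levels beside which these can be set, with no test between lone libraries. Acta1 was at 60.2 CPM in the Pax7 reporter-positive and 826 CPM in the reporter-negative fraction of induced myogenic progenitors and 41.7 CPM in embryonic fibroblasts, against 6832 CPM in ASC. Pax7 was at 37.8, 6.25 and 0 CPM in the same order, against 19.8 CPM in ASC. Fos was at 76.4, 59.9 and 39.9 CPM and Hspa1a at 3.25, 20.1 and 29.9 CPM, all below the QSC values. Dlx2, absent from QSC, was at 8.59, 4.93 and 10.6 CPM.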

How the data were processed

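RNA was measured in 6 libraries, of which 1 ASC and 2 QSC libraries are compared here. The authors deposited raw counts per gene and RPKM values, made with STAR 2.3.0, HTSeq 0.6.0, Picard 1.100 and edgeR on mm9, per the submitters' processing notes; how strand was used in counting is not given in the sources used here, so antisense partners such as Xist and Tsix may share reads. Counts were tested with edgeR 4.0.16 in R 4.3.3 (TMM scaling, quasi-likelihood fit, 5 groups, 1 residual degree of freedom, p-values adjusted over 17116 genes). Nothing in the labels says more of the QSC mice than that they are separate, and p-values measure the spread between these libraries. The level of 5 CPM defined members, a prior count of 2 entered single-mouse differences, and a gene with 0 counts in a group was given a bound from 3 counts over that group. Ratios resting on 1 to 3 counts carry exact 95% intervals, which cover counting error only. RPKM deposited by the authors served for comparisons between genes. DESeq2 1.42.0, other scalings and other filters were alternatives. Scripts were tested on simulated data. Members and lists were chosen with earlier results of these data known. Named genes were the 15 largest rises and falls among called genes past 4-fold, then up to 4 called members of each list in each direction, its highest members without a call, and other members with their values; symbols of the Gm, Rik and LOC kind were counted, not described. Promoter letters were read from RefSeq windows of GRCm38.p6, and no coordinates were converted from mm9. Some results of single genes are not reported here.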

Additional observations from a re-analysis of the deposited data

How the results depend on the processing

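With library size alone, falls dropped to 481, 4-fold rises grew to 2317 and 4-fold falls dropped to 799; on the authors' RPKM 547 genes were 4-fold lower. Of 3096 calls, 2095 (67.7%) were kept in the same direction with library size alone, 2850 (92.1%) with RLE factors, 2927 (94.5%) with DESeq2 and 2947 (95.2%) in a fit of the 3 libraries; 0 passed in the opposite direction in these 4. Rises numbered 1566 to 2406 over the alternatives. Without 1 QSC mouse no residual degree of freedom was left, so calls were not redone. With size asked against 1 mouse alone, 4-fold rises numbered 1885 to 2028 and 4-fold falls 1476 to 1599. These counts could not drop below those of the main rule, which asks for the size against each mouse. List medians changed sign as follows. With library size alone niche and matrix was at 0.25, splicing at 0.47 and Schwann markers at 0.57. With a minimum of 1 CPM splicing was at 0.13 and smooth muscle markers at -0.72. Against single mice proteasome was at -0.0875 to 0.748, cholesterol at -1.15 to 0.0652 and splicing at 0.0136 to 0.0541. These single-mouse values are differences with a prior count and not fits, so a change of measure enters as well. The cause was not tested. Of 298 genes named, 45 lost their call with library size alone (Actc1, Arntl, Atf4, Ccnb1, Cd9, Cdk1, E2f5, Egfr, Eif1, Elmo1, Fgfr1, Gal, Gnl3, Hbb-bs, Heyl, Hsp90aa1, Hspa8, Ifit1, Igf1r, Irf7, Itga8, Jun, Lama2, Lmod2, Map1lc3a, Myog, Nfatc2, Nop58, Nr1d1, Pax3, Pecam1, Per1, Phgdh, Polr1b, Rrm2, Sntb2, Tet2, Tie1, Tmem8c, Tsix, Ubb, Uhrf1, Vcam1, Xbp1, Xist). RLE factors ended 8 calls (Cxcl12, Pax3, Pecam1, Phgdh, Polr1b, Rbl2, Six4, Uhrf1), DESeq2 7 (Ccnb1, Gm7325, Myog, Polr1b, Rbl2, Tmem8c, Uhrf1) and the fit of 3 libraries 2 (Rbl1, Rbl2). No paired analysis was possible, since there is 1 ASC library and no label links it to a QSC mouse.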
